A study of Mus musculus with 6 samples.

Results

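The cells described here are the GL261 cells richest in the smooth muscle transcripts Acta2 and Tagln. Each GL261 cell with at least 8000 UMIs (unique molecular identifiers, which count captured RNA molecules), at least 500 genes and under 10% mitochondrial UMIs was scored by its summed Acta2 and Tagln UMIs as a share of all its UMIs. The top 10% of each library formed the contractile-high class, and the bottom 50% of the same library the contractile-low class used for comparison. The contractile-high class held 388 of 3875 cells in replicate 1 and 410 of 4100 cells in replicate 2, in all 798 of 7975 GL261 cells and of 22868 cells in the series. The contractile-low class held 1938 and 2050 cells, and the cells between them are called the middle class.

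GL261 is a mouse glioma line, and the series holds 2 droplet libraries of it, grown in medium with fetal calf serum, and 4 of GL261-GSCs, which are labelled glioblastoma stem cells and were grown in a defined medium made for such cells. No treatment, genetic change or sort is named for either line. Both groups were dissociated with Accutase and exposed to a detergent lysis buffer before 5′ capture, and whether cells or nuclei were loaded is not stated. Nothing in the labels says that the 2 GL261 libraries came from separate cultures, and the classes compared share a culture and a library. The p-values below rest mostly on counting noise and a spread shared over genes, so a gene can be called while its 2 libraries differ. They do not measure a spread between cultures.

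Acta2 encodes smooth muscle α-actin and Tagln encodes transgelin (SM22), an actin-binding protein. Both are textbook genes of smooth muscle, myofibroblasts and the mural cells of vessels. Their transcription is driven by serum response factor (SRF), which binds the CArG box, together with the myocardin-related cofactors Mrtfa and Mrtfb. Those cofactors are held in the cytoplasm by monomeric actin and enter the nucleus when actin polymerizes, so that the pathway reads the state of the cytoskeleton.

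The score was spread over a continuous range with no gap at the class border. In replicate 1, 1704 cells (44.0%) had no UMI of either gene, and in replicate 2 the number was 1415 (34.5%). The lowest contractile-high score was 825 CPM (UMIs per 1e6 UMIs of the cell or sum) beside 821 for the next cell below in replicate 1, and 1090.0 beside 1087 in replicate 2. The highest scores were 16620 and 16195 CPM. The contractile-high cells carried 65.6% and 57.3% of all Acta2 and Tagln UMIs of their libraries, with a median of 26 and 25 UMIs per cell. These shares come from the UMIs that ranked the cells and are a description only.

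**Figure D1:**
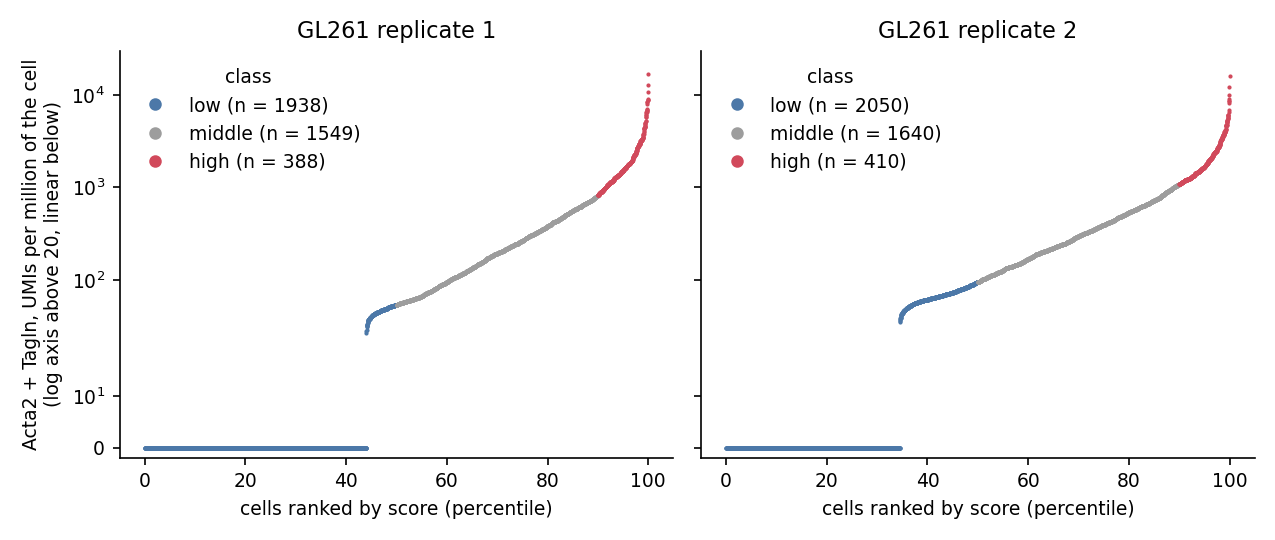
Summed Acta2 and Tagln CPM of the cell (vertical, log above 20 and linear below) against the rank of the cell by that score in percent (horizontal), 1 point per cell, for the 2 GL261 libraries. Colours mark the low, middle and high class, and the curve runs through both class borders without a break.

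Acta2, on the minus strand at chr19:34241090-34255590 (GRCm38, as are all coordinates here), stood at 1583 CPM in the contractile-high, 175 in the middle and 4.70 in the contractile-low cells of replicate 1. In replicate 2 the same levels were 1619, 244 and 13.2 CPM. Tagln, on the minus strand at chr9:45929619-45936058, stood at 513, 93.0 and 2.34 CPM in replicate 1 and at 626, 133 and 8.56 CPM in replicate 2. These levels chose the classes and are a description only. The ratio of high to low was 337 and 122 for Acta2. It fell to 66.0 and 41.4 when the classes were chosen on a random part of each cell's UMIs and the levels were read in the remaining UMIs. When the cells were ranked by Tagln alone, Acta2 was 7.81 and 7.12 times higher in the top than in the bottom class. When they were ranked by Acta2 alone, Tagln was 10.6 and 9.30 times higher. A gene left out of the ranking tends to differ less than a gene in it, so these ratios are not set against those above. Over all cells of a library the Spearman correlation of the Acta2 and Tagln shares was 0.360 in replicate 1 and 0.368 in replicate 2.

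Both scoring genes were unevenly spread over cells. With each cell thinned to 8000 UMIs, Acta2 was seen in 35.7% and 43.95% of cells of replicates 1 and 2, with a mean of 1.84 and 2.19 and a maximum of 83 and 91 UMIs. Tagln was seen in 23.3% and 30.9% of cells, with a mean of 0.707 and 0.940 and a maximum of 27 and 69 UMIs. Vim, an abundant filament gene, was seen in 100% of cells of both libraries, with a mean of 108 and 113 and a maximum of 383 and 303 UMIs. Myl9, which was not used for the score, was seen in 21.5% of cells in each library, with at most 9 and 7 UMIs.

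Both genes were nearly absent from the GL261-GSCs. Summed over 1785 to 4867 cells per library, Acta2 gave 9, 66, 16 and 10 UMIs in GL261-GSCs replicates 1 to 4, which is 0.146, 1.04, 0.239 and 0.473 CPM. Tagln gave 5, 3, 30 and 1 UMIs, or 0.0811, 0.0473, 0.448 and 0.0473 CPM. A UMI of either gene was seen in 0.361%, 1.40%, 0.534% and 0.560% of these cells, whose median depth was 11036 to 16655 UMIs. The largest Tagln counts, 14 and 7 UMIs, were in 2 cells of replicate 3, each without an Acta2 UMI. In GL261, 56.0% and 65.5% of cells had a UMI of either gene at median depths of 16880 and 14656 UMIs. Barcodes of 100 to 1000 UMIs, which hold mostly free RNA, gave 224 and 290 CPM of Acta2 in the GL261 libraries. The contractile-low cells were chosen for low values, so no level of theirs is set against this.

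The contractile-high cells were neither deeper nor shallower than the rest. Median UMIs per cell were 17059 in the high, 16641 in the middle and 17128 in the low class of replicate 1, and 14418, 14839 and 14581 in replicate 2. Mitochondrial UMIs had medians of 0.897% and 0.982% in the high and low class of replicate 1 and of 0.893% and 0.916% in replicate 2. The 2 GL261 libraries shared 23 cell barcodes, where 21.5 would coincide by chance, and none of the shared barcodes was contractile-high in both.

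UMIs were summed per library and class, and the high and low sums were compared with edgeR's quasi-likelihood test with the library as a block, leaving out Acta2 and Tagln. Of 14661 genes tested, 1765 (12%) had an adjusted p under 0.05, with 1133 (7.73%) higher and 632 (4.31%) lower in the contractile-high cells. Only 64 of the higher and 108 of the lower genes differed by at least 2-fold. These counts include scarce genes. Among the genes named below at an average log2 CPM of 5 or more, the 12th largest rise was 1.12 and the 12th largest fall -0.60 on the log2 scale. The sign was the same in both libraries for 1761 of the 1765 genes, and the middle class lay between the others for 1712. The calls were made from these same sums, and the shares over all genes tested were not counted, so these counts are a description only. Between neighbouring classes, 660 genes (4.5%) were called between the middle and the low class and 501 (3.42%) between the high and the middle class. The high sums of both libraries lay on the same side of both low sums in 43.9% of all genes tested, and 10.7% were in addition called. The split depends on scaling: with total UMIs in place of TMM, 676 genes were higher and 1753 lower, and the median over all genes moved from -0.01 to -0.09. Without the library term 153 genes (1.04%) were called, 132 of them higher. In simulated counts that fit recovered 0 of 67 genes changed by 0.5 and 18 of 67 changed by 1 on the log2 scale. Small changes lost under it are thus not shown to be absent. The simulated difference between libraries was set by hand and each change was alike in both libraries, so these recoveries hold for that setting only. All class levels below are CPM scaled by TMM, and fold changes are log2 of high over low (n = 2 libraries). Their standard error comes from the same fit and is not the spread of the 2 libraries. CPM is not divided by gene length, so levels are compared within a gene only.

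The contractile apparatus rose almost as a whole in the cells rich in Acta2 and Tagln. Of 30 listed genes other than these, 25 had enough UMIs to be tested, and 21 were higher and 1 lower, where 7.73% and 4.31% of all genes were. Actg2, 1 of the 21, had enough UMIs only through its high sums, so its call adds nothing. The median of the 25 log2 fold changes was 0.90, beside -0.01 over all genes tested, and 16 were called without the library term, all higher. Actc1, Mylk, Myh10, Myh11 and Ldb3 had too few UMIs. In cells under the median of their library for the summed share of cell cycle genes, 18 of 23 tested members were higher, beside 5.49% of all genes tested in those cells, and the median was 0.88.

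Myl9, which encodes the regulatory light chain of smooth muscle and non-muscle myosin II (chr2:156775420-156781658, plus strand), showed the largest change of any gene at an average log2 CPM of 5 or more. Its level was 147, 46.0 and 17.2 CPM in the high, middle and low class of replicate 1 and 145, 45.4 and 16.9 CPM in replicate 2. Both high sums lay far above both low sums, and the fitted difference was 3.09 ± 0.06 on the log2 scale (adjusted p = 2.79e-29), or 8.54-fold. In the GL261-GSCs it stood at 0.567, 1.15, 1.57 and 3.12 CPM. The other light chain on the list, Myl6, went from 854 to 1500 CPM and from 1010 to 1629 CPM, a log2 fold change of 0.75, and the non-muscle heavy chain Myh9 rose by 0.77.

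Apart from Myl9, the steepest rises of the list were those of scarce genes. Lmod1, a leiomodin that nucleates actin filaments, gave 110 and 123 UMIs in the high class against 37 and 32 in the low class, which holds about 5 times as many cells, or 17.2 and 21.3 CPM against 1.06 and 1.04 CPM. Its log2 fold change was 4.18 ± 0.18 (adjusted p = 1.78e-19). Cnn1, calponin of differentiated smooth muscle, rose from 2.42 to 18.9 CPM and from 1.98 to 16.9 CPM (log2 fold change 3.02 ± 0.16). Acta1, skeletal α-actin, gave 43 and 33 UMIs in the high and 17 and 18 in the low class (3.53 ± 0.29). Actg2, the enteric γ-actin, gave 8 and 6 UMIs in the high class against 3 and 1 in the low class, too few for a fold change to be given. Unlike Acta1 and Acta2, it had more RNA in the GL261-GSCs, at 17.8 to 33.4 CPM. Actin genes are close in sequence and the counting of reads shared between them is not stated, so the small counts of Acta1 and Actg2 are uncertain.

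Broadly expressed members of the list moved less, by 0.14 to 1.36. Cnn2, the calponin of non-muscle cells, had 1093, 633 and 403 CPM in the high, middle and low class of replicate 1 and 1112, 711 and 456 CPM in replicate 2, so the groups did not overlap (log2 fold change 1.36 ± 0.04). Actn1, the α-actinin that crosslinks stress fibres, rose by 1.26 ± 0.03 and the caldesmon gene Cald1 by 1.12 ± 0.03. Among tropomyosins, the coiled coils that lie along actin filaments, the order was Tpm1 (1.15), Tpm4 (0.90), Tpm2 (0.71) and Tpm3 (0.20, with 0.26 and 0.15 in the 2 libraries). In edgeR without the library term Tpm2 (adjusted p = 0.0741) and Tpm3 (adjusted p = 0.402) lost the call. Tpm1 had 2859 and 3469 CPM in the high class against 1252 and 1602 CPM in the low class. Tagln2, a paralog of Tagln, rose by 1.01, Csrp1 by 0.98, Flna by 0.89 and Cnn3 by 0.70.

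A few members did not follow. Csrp2, a LIM protein of smooth muscle, was lower in the contractile-high cells, with 251 and 203 CPM against 279 and 257 CPM (log2 fold change -0.24 ± 0.04, adjusted p = 6.83e-05). Its change was -0.15 in replicate 1 and -0.34 in replicate 2. With members chosen by Tagln alone it was -0.06 (adjusted p = 0.478). The myosin phosphatase subunit Ppp1r12a was just past the threshold at 0.14 (adjusted p = 0.0480) and lost the call in 13 of the alternatives. Des, Synpo2 and Tagln3 did not pass the test, with 2 to 76 UMIs per class and library and opposite signs in the 2 libraries.

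**Figure D2:**
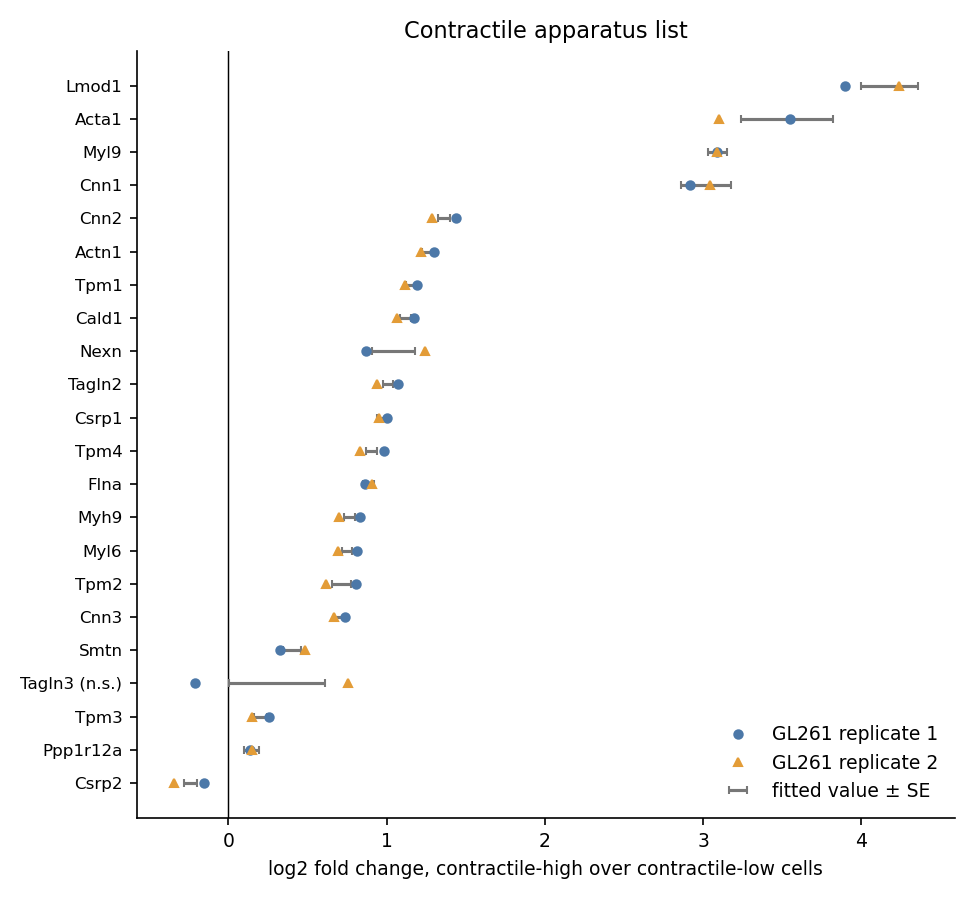
Log2 fold change of contractile-high over contractile-low cells (horizontal) for the tested members of the contractile apparatus list with more than 3 UMIs in every high and low sum. Points and triangles are the 2 libraries, bars are the fitted value ± SE, n.s. marks an adjusted p of 0.05 or more, and Myl9, Lmod1, Cnn1 and Acta1 stand apart with fitted values of 3.02 or more.

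The promoters of several genes that moved with Acta2 hold a CArG box in the 250 bases before the start of transcription that RefSeq gives. The sequences below are stretches of RefSeq promoters (GRCm38.p6), written 5′ to 3′ on the strand of the gene, with CArG boxes in capitals. They are shown because these genes are SRF itself and, of the named contractile, actin and adhesion genes, those that rose and hold an exact box, with A or T at every inner position. Acta2 has no exact box there and 2 boxes with a G or C at 1 inner position. They are not shown, because GENCODE places the start of Acta2 217 bases further upstream, so that the stretch holding them overlaps the gene there. Further boxes of the looser kind in Myl9 and Acta1 are not shown either. Of 22 tested contractile list genes with a promoter entry, 3 (13.6%) held an exact box and 4 (18.2%) a box of either kind. Among the genes that rose, Lmod1, Cnn1, Tpm1, Actn1 and Cald1 had neither kind.
Myl9, chr2:156775278-156775337, plus strand: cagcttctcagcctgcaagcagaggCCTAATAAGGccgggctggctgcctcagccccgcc
Acta1, chr8:123894814-123894873, minus strand: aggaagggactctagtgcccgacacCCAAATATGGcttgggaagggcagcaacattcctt
Cnn2, chr10:79988519-79988578, plus strand: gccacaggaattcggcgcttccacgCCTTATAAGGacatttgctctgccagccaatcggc
Actg1, chr11:120348551-120348610, minus strand: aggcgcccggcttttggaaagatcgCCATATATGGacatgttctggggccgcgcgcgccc
Vcl, chr14:20929148-20929205, plus strand: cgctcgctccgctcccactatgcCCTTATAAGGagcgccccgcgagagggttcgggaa
Srf, chr17:46556190-46556269, minus strand: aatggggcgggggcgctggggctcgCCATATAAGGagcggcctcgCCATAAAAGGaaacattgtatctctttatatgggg

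Searched on both strands, an exact CArG box was present in the window of 378 of 27025 genes with a promoter in the table (1.40%). Among the genes tested and matched the share was 114 of 9952 (1.15%), among those higher in the contractile-high cells 24 of 878 (2.73%), and among those lower 7 of 481 (1.46%). Of the 161 matched genes that rose by at least 0.5 on the log2 scale, 10 (6.21%) held an exact box. With a G or C allowed at 1 inner position, as in Acta2, the shares were 8.65% of all promoters, 7.92% of the genes tested, 9.34% of the higher, 14.3% of the strongly higher and 10.2% of the lower genes. The motif GGAATG, which TEAD factors bind and which was also searched on both strands, was present in 12.6% of all promoters, 10.6% of the genes tested, 14.0% of the higher, 18.6% of the strongly higher and 11.2% of the lower genes. A match of letters is a description and not a binding site. Tagln, Ctgf, Thbs1, Fn1, Col1a1 and Actb had no entry in the table.

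SRF itself and its actin targets rose, while the RNA of its cofactors did not pass the test. Of 15 tested genes of the SRF and actin regulator list (Myocd had too few UMIs), 8 were higher and none was lower, beside 7.73% and 4.31% of all genes, with a median log2 fold change of 0.19, and 4 were called without the library term. Srf had 77.3, 49.1 and 44.3 CPM in the high, middle and low class of replicate 1 and 68.1, 58.3 and 41.97 CPM in replicate 2 (0.76 ± 0.08, adjusted p = 2.10e-09). Mrtfa, listed under its older symbol Mkl1, was at 0.17 (adjusted p = 0.324) and Mrtfb, listed as Mkl2, at 0.03 (adjusted p = 0.903). Cytoplasmic actins rose at very high levels: Actg1 went from 3227 to 5789 CPM and from 3840 to 6664 CPM (0.82), and Actb from 7869 to 12490.5 CPM and from 8537 to 12960.1 CPM (0.63).

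Focal adhesions, where stress fibres meet integrins, followed the same direction. Of 28 tested genes, 20 were higher and 1 lower (median 0.44), beside 7.73% and 4.31% of all genes. Without the library term 13 were called. Vcl, vinculin, had 182 and 168 CPM in the high against 102 and 95.6 CPM in the low class (0.83 ± 0.05), and Ilk, the integrin-linked kinase, had 306 and 310 CPM against 161 and 163 CPM (0.92 ± 0.04). Zyx rose by 0.87, Lpp by 0.92, Flnc by 1.11, Tln1 by 0.58 and the integrin subunit Itgb1 by 0.51. The integrin subunits Itga1, Itga3, Itga5 and Itgb5 and paxillin (Pxn) did not pass the test, at -0.21 to 0.11. The gene called lower was Enah, which was scarce (average log2 CPM of -0.12) and nearly absent from the high sums. It was at -3.74 and -1.28 in the 2 libraries, and its middle class stood 0.15 above the low class on the log2 scale.

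**Figure D3:**
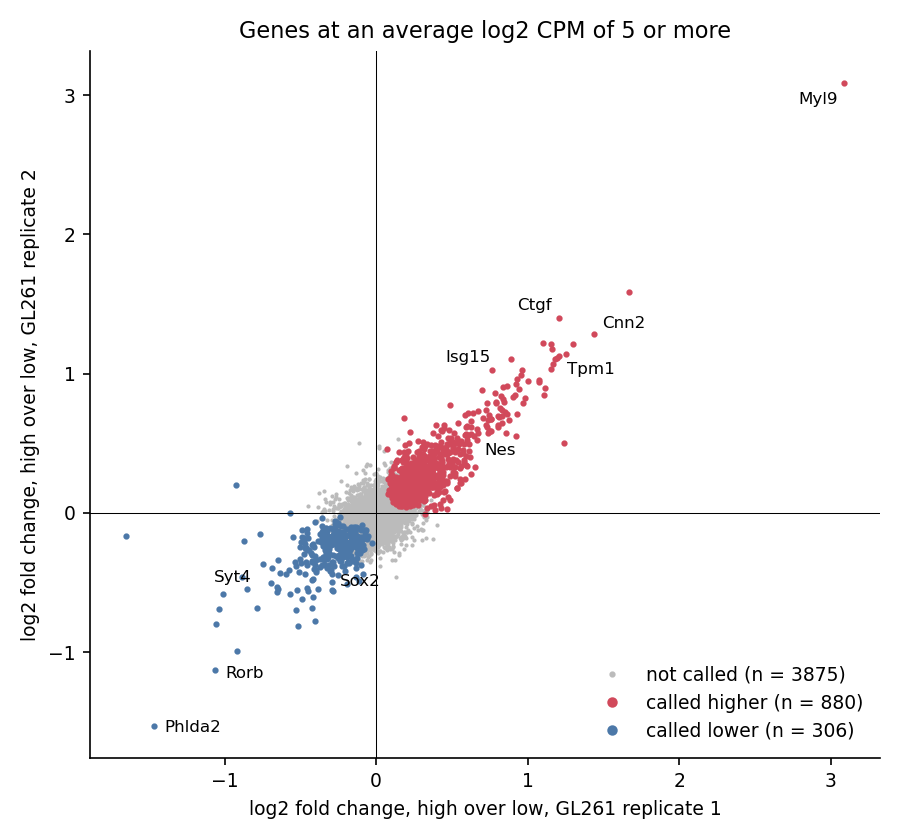
Log2 fold change of high over low in GL261 replicate 1 (horizontal) and replicate 2 (vertical) for the 5061 genes at an average log2 CPM of 5 or more. Of these, 880 were called higher and 306 lower, 23.4% in all. Myl9 lies alone at the top right with nearly the same value in both libraries, Phlda2 at the bottom left, and the unlabelled point beside Cnn2 is the predicted gene Gm17501.

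Ctgf and Cyr61 encode secreted proteins, and Ctgf was among the 12 largest rises at an average log2 CPM of 5 or more. Ctgf, a matricellular protein of fibrosis, had 182 and 194 CPM in the high, 105 and 110 CPM in the middle and 79.1 and 73.4 CPM in the low class (1.30 ± 0.05, adjusted p = 5.74e-21). Cyr61, its relative, rose by 0.97 from 909 and 821 CPM to 1762 and 1632 CPM. In both of these the high and low sums did not overlap. Both had less RNA in the GL261-GSCs, where Ctgf stood at 0.0597 to 0.908 CPM and Cyr61 at 9.18 to 16.1 CPM.

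Most of the TGF-β pathway did not pass the test. Of its 24 tested genes, 7 were higher and 1 lower (median 0.13), beside 7.73% and 4.31% of all genes, and 4 were called without the library term. The ligand Tgfb2 rose by 1.17 ± 0.07, with 51.8 and 79.7 CPM against 24.1 and 34.1 CPM, whereas Tgfb1 was at 0.22 (adjusted p = 0.120) and Tgfb3 at -0.27. Inhba, which encodes an activin subunit, rose by 2.23 and Tgfb1i1, a paxillin relative known as Hic-5, by 1.45. Of the other targets, Id3 rose by 0.28 and Bhlhe40 by 0.41, Pmepa1 fell by 0.17, and Tgfbi (-0.37, adjusted p = 0.465), Smad7, Id1, Id2 and Skil did not pass. The YAP/TAZ list holds Yap1, Wwtr1, Tead1 and Tead3 as well as targets, and shares Ctgf with the TGF-β list. Of its 16 tested genes, 8 were higher, Tead1 among them, and none lower, beside 7.73% and 4.31% of all genes. The median was 0.23, and 4 were called without the library term. Ankrd1 had the largest rise (1.85, but 2.08 in replicate 1 and 0.90 in replicate 2) but was scarce, with an average log2 CPM of -0.50. Ctgf and Cyr61 came next. Tead1, the DNA-binding partner, rose by 0.70, while Yap1 (-0.12) and Wwtr1 (0.00) did not pass.

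Of 29 tested matrix genes, 16 were higher and 1 lower (median 0.30), beside 7.73% and 4.31% of all genes. Fn1, fibronectin, had 954 and 1002 CPM in the high, 593 and 696 CPM in the middle and 427 and 442 CPM in the low class, a rise of 1.17 ± 0.04 with no overlap. Thbs1 rose by 0.79, Timp3 by 0.88, the collagen gene Col1a1 by 0.87 and the collagen chaperone Serpinh1 by 0.51. The lower member was Thbs2 (-0.40, with -0.62 and -0.08 in the 2 libraries). Without the library term only 2 matrix genes were called. Mesenchymal factors moved little: 7 of 18 were higher and none lower, beside 7.73% and 4.31% of all genes (median 0.06, and 1 called without the library term), Vim by 0.29 from 12322 and 13476 CPM to 15413 and 16038 CPM, and S100a6 by 0.45 (0.56 and 0.34). Cd44 was at 0.02 with opposite signs in the libraries, and Twist1, Zeb1, Prrx1 and Snai1 did not pass.

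**Figure D4:**
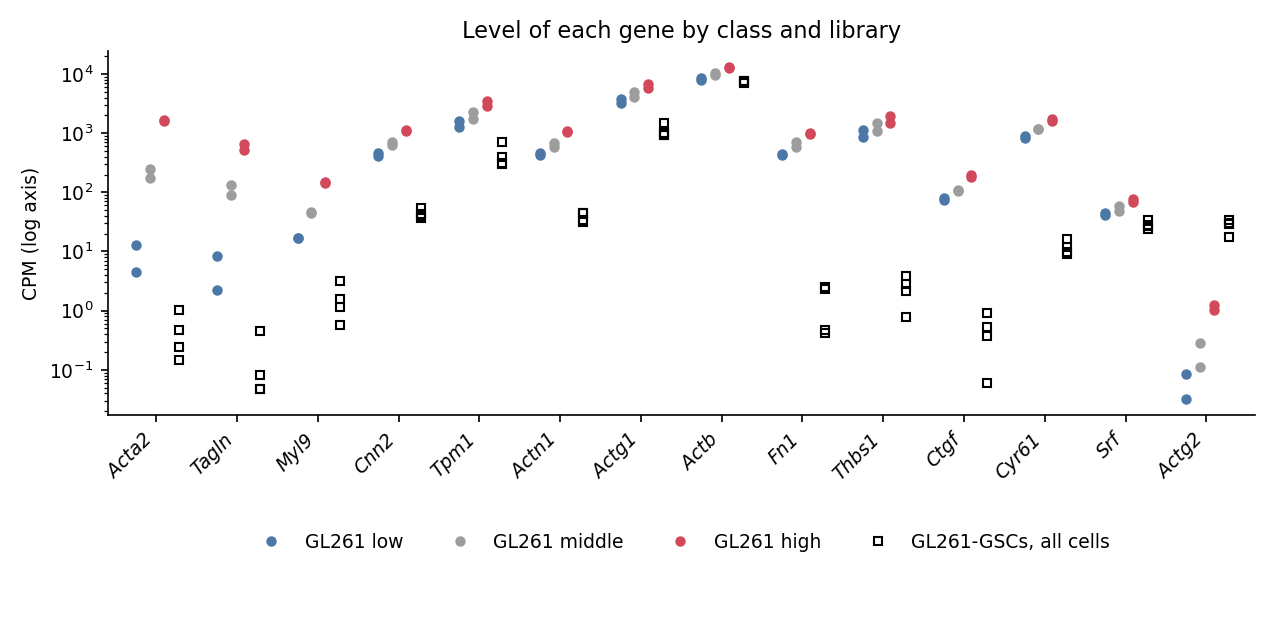
Level in CPM (log axis) of 14 genes in the low, middle and high class of the 2 GL261 libraries (filled points, scaled by TMM) and over all cells of the 4 GL261-GSCs libraries (open squares, unscaled). Acta2 and Tagln ranked the cells, so their order of classes is built in. From Myl9 to Srf the high class also lies above the low class in both libraries. Myl9, Cnn2, Tpm1, Actn1, Fn1 and Ctgf were named for large rises without overlap, so their order is a description only. Actg2 is the one gene of the plot with more RNA in the GL261-GSCs than in any GL261 class.

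Further large rises were Vgll3 (1.20 ± 0.04), a vestigial-like cofactor of TEAD factors, with 333 and 377 CPM against 140 and 171 CPM, and Metrnl (1.14), a secreted factor. Tubb3, a tubulin better known from neurons, rose by 1.17 ± 0.06, with 138 and 150 CPM against 60.0 and 68.5 CPM.

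The largest fall among genes at an average log2 CPM of 5 or more was that of Phlda2, an imprinted gene that restrains placental growth (chr7:143501545-143503150, minus strand). It had 28.3, 52.0 and 78.3 CPM in the high, middle and low class of replicate 1 and 23.5, 42.1 and 67.9 CPM in replicate 2, so the order was the reverse of Acta2 in both libraries. Its log2 fold change was -1.50 ± 0.08 (adjusted p = 3.80e-17), or 2.82-fold lower. Rorb, a retinoid-related orphan receptor, fell by 1.09 ± 0.07, with 50.1 and 30.9 CPM against 105 and 67.7 CPM. The 12 largest falls also held the myo-inositol transporter Slc5a3 (-0.95), Slc22a4 (-0.75) and the vitamin C transporter Slc23a2 (-0.60). The others were Tbc1d30 (-0.95), Shisa8 (-0.87), the synaptotagmin Syt4 (-0.81), Gas7 (-0.69), Prss12 (-0.66), Igfbp4 (-0.63) and the imprinted retrotransposon gene Peg10 (-0.61). The 2 libraries differed by more than 1.5 times in Shisa8 (-1.04 and -0.69), Syt4 (-1.01 and -0.59), Gas7 (-0.85 and -0.55), Prss12 (-0.88 and -0.46) and Igfbp4 (-0.51 and -0.81). Without the library term 9 of these 12 falls and 1 of the 12 largest rises, Tgfb2, lost the call, with adjusted p between 0.0792 and 0.283.

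Surface and stem cell genes split in both directions, with 5 of 16 higher and 7 lower (median -0.09), beside 7.73% and 4.31% of all genes, 1 of which was called without the library term. Nes, the intermediate filament of neural progenitors, rose by 0.60, from 977 and 1022 CPM to 1528 and 1497 CPM. Klk8, a secreted protease, rose by 0.37 and Aldh1a3 by 0.67. Sox2, the stem cell transcription factor, fell by 0.35 ± 0.07, with 52.6 and 48.4 CPM against 64.6 and 64.2 CPM, and Cd24a was called lower on few UMIs. Ly6a rose by 0.15 but with a middle class above the high class in both libraries (499 and 659 against 498 and 633 CPM), and the call was lost with library size scaling (0.0663, adjusted p = 0.120), with equal cell numbers (0.109, adjusted p = 0.0815) and without the library term (adjusted p = 0.783). Ly6c1 and Nrp1 did not pass the test. Klk8, Ly6a, Ly6c1 and Nrp1 stood at 0.221 CPM or lower in all GL261-GSCs libraries.

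Genes of mitosis were also higher. Of 48 genes of the G2/M list, 29 were higher and none lower (median 0.23), beside 7.73% and 4.31% of all genes. Ube2c, which helps to mark mitotic proteins for destruction, had the smallest p of the list (0.45 ± 0.03), with 703 and 863 CPM against 507 and 642 CPM. Mki67 rose by 0.22 and Top2a by 0.21 (0.16 and 0.25). Without the library term edgeR called none of the 48 (19 had an unadjusted p under 0.05), while DESeq2 with that term called 24, all higher, beside 4.6% of all genes. In edgeR without it the adjusted p was 0.297 for Ube2c, 0.485 for Mki67 and 0.401 for Top2a. The median share of G2/M UMIs per cell was 0.651% in the high and 0.501% in the low class of replicate 1, and 0.772% and 0.609% in replicate 2. DNA replication genes did not rise with them: of 33 G1/S genes 1 was higher, Rrm2 (0.16, but 0.32 and -0.01 in the 2 libraries), and 1 lower, Mcm3, shares below those of all genes. With library size scaling 0 were higher and 7 lower (median -0.10), where 676 and 1753 of 14661 genes were higher and lower. Per cell, the median G1/S share was 0.232% in the high and 0.242% in the low class of replicate 1, and 0.227% and 0.259% in replicate 2. In cells under the library median of the summed cell cycle share, 4 of 48 G2/M genes were higher (median 0.11), beside 5.49% of all genes in those cells. These cells were chosen by low levels of the same genes, so a drop in G2/M calls is built in and decides nothing. Of 20 cell cycle inhibitors and p53 targets 2 were higher (Cdkn1b and Cdkn2c) and 2 lower (Cdkn1c and Btg2), beside 7.73% and 4.31% of all genes, and Cdkn1a stayed at 0.01 (adjusted p = 0.951). Without the library term edgeR called none of the 20, and DESeq2 with that term called 2 higher and none lower. Btg2 was at -1.33 and -0.11 in the 2 libraries.

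**Figure D5:**
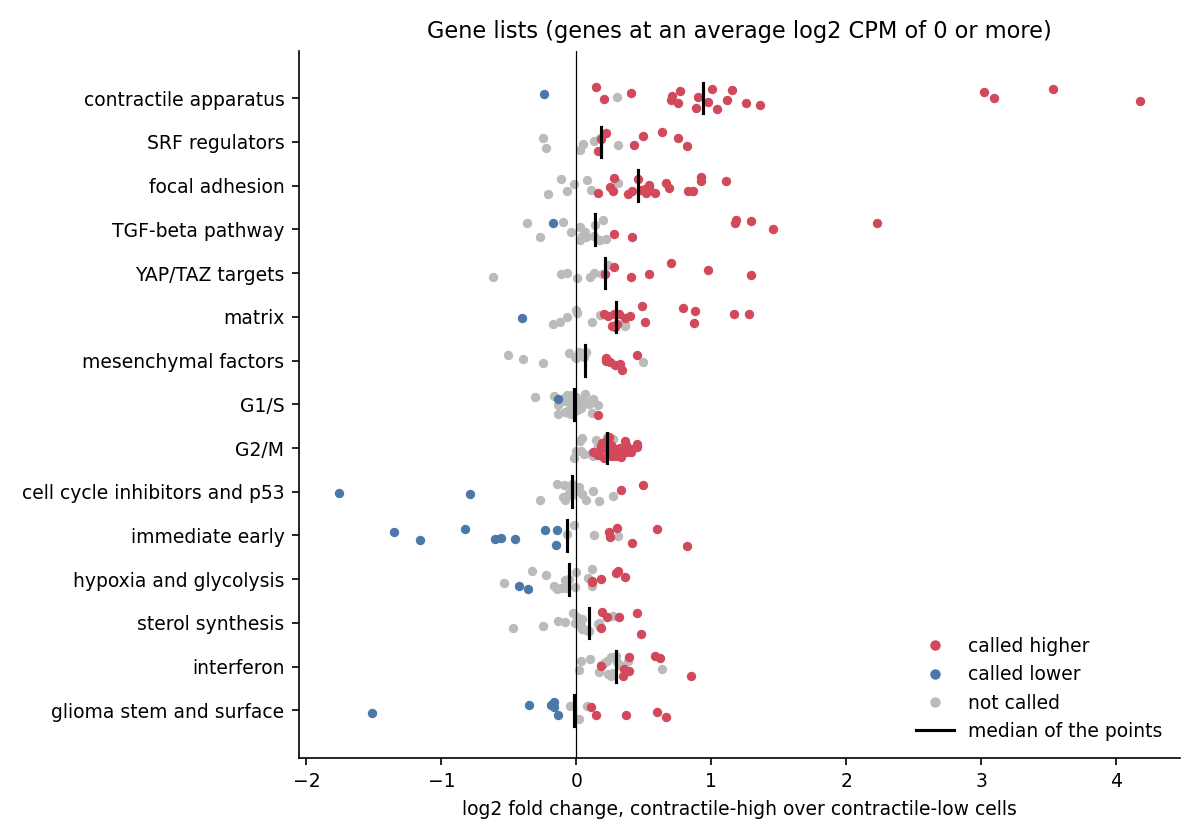
Log2 fold change of contractile-high over contractile-low cells (horizontal) for the members of 15 gene lists (rows) at an average log2 CPM of 0 or more, so the medians drawn can differ slightly from those over all tested members. Red and blue points were called higher and lower, grey points were not called, and black bars are medians: the contractile list lies farthest right and the G2/M list is a narrow cluster above 0.

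Immediate early genes, several of them SRF targets induced within minutes of stimulation or of cell handling, were divided. Of 20, 6 were higher and 10 lower (median -0.11), beside 7.73% and 4.31% of all genes, and 1 was called without the library term. Dusp1, a phosphatase of MAP kinases, rose by 0.82 with 367 and 327 CPM against 213 and 180 CPM, and Zfp36 rose by 0.60, Klf6 by 0.41, Klf2 by 0.30, Jund by 0.25 and Jun by 0.24. Egr1 fell by 1.16, with -1.65 in replicate 1 and -0.17 in replicate 2. Fos (-0.74 and -0.36), Atf3 (-1.21 and -0.31) and Btg1 (-0.75 and -0.36) likewise differed between the libraries, while Junb (-0.47 and -0.44) and Myc (-0.27 and -0.20) did so less.

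Over single cells, the genes whose share followed the score most closely came in 8 of 10 cases from the contractile list, the other two being Actb and Actg1. Among 5060 genes, the highest mean Spearman correlations over the 3875 and 4100 cells were those of Tpm1 (0.473), Cnn2 (0.417), Myl9 (0.390), Actb (0.379), Actn1 (0.361), Tpm4 (0.359), Myl6 (0.356), Tagln2 (0.354), Actg1 (0.352) and Cald1 (0.321). The lowest were those of the ferritin gene Fth1 (-0.197), Phlda2 (-0.187) and Arpc1b (-0.182), and the median over all these genes was -0.01. Cells of a library share its depth and free RNA, and low counts weaken a correlation, so these values rank genes and are no test.

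Many defining markers of vascular and connective tissue cells were not detected in the contractile-high cells. Some had no UMI in any GL261 class: 4 of 15 mural, 2 of 15 fibroblast, 5 of 12 endothelial and 4 of 14 immune markers. Among these are Rgs5, Kcnj8, Higd1b, Lum, Col1a2, Kdr, Cldn5, Ptprc, C1qa and C1qb, which are named below. Their lack of UMIs is thus not particular to the contractile-high cells. The high sums also hold fewer cells than the low sums, so scarce RNA is more easily missed there. Of 15 mural cell markers, 7 had no UMI in either high sum, among them the pericyte genes Rgs5, Kcnj8, Abcc9 and Higd1b, which allows at most 0.455 and 0.501 CPM without TMM scaling (3 UMIs per library, counting error only). In CPM not scaled by TMM, the whole list summed to 438 and 490 in the high against 295 and 308 in the low class, nearly all of it Mcam, an adhesion molecule that rose by 0.99, and Cspg4 (0.39). Its tested members were 2 higher and 1 lower of 6, where 7.73% and 4.31% of all genes were, the shares that also apply to the marker lists that follow. Fibroblast markers summed, likewise unscaled, to 372 and 420 CPM against 248 and 255 CPM, mostly Col1a1, with 7 of 15 at 0 in the high class including Dcn, Lum, Col1a2 and Thy1, and with 1 higher and 1 lower (Pdgfra, -0.93) of 5 tested. Of 12 endothelial markers, 7 were at 0, including Kdr, Tek and Cldn5, and none of 4 tested was called. Of 14 immune markers, 8 were at 0, including Ptprc, C1qa and C1qb, with 1 higher (Csf1r) and 1 lower (Cd68) of 3 tested. Neither immune call held with DESeq2, without the library term or with members chosen by Tagln alone, where the adjusted p of Csf1r was 0.159, 0.134 and 0.387. Astrocyte markers had 1 lower of 5 tested (Gja1), oligodendrocyte lineage markers 3 higher (Sox10, Mbp and Cspg4) and 4 lower of 10, and neuron markers 1 higher (Tubb3) and 1 lower (Map2) of 3. Among all these lists the calls of Mcam, Col1a1 and Tubb3 remained without the library term. Whether a few cells of another type were among the contractile-high cells was not tested beyond these levels.

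Reads near the scoring genes were looked at separately. Gm48529, an antisense gene inside Tagln (chr9:45930112-45933738, plus strand), rose by 3.64 (adjusted p = 1.62e-08), and because it is not stated whether strand was used in counting, its UMIs cannot be told apart from those of Tagln. Pcsk7, which overlaps the end of Tagln, was at 0.11 (adjusted p = 0.629), and Stambpl1, next to Acta2, at 0.31 (adjusted p = 0.285).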

How the data were processed

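The authors deposited raw UMI counts per gene and barcode for 6 droplet libraries, with Cell Ranger 4 named in the file headers and the build mm10 in the submitters' processing notes. Barcodes were not filtered in the deposited counts, and other counting settings are not stated. The 2 GL261 libraries held 110077221 and 102141454 UMIs, of which 66183292 and 61236969 lay in the cells kept. Doublets were not called.

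The members of the class and the gene lists were chosen with earlier results of these data known. Counts were summed per library and class (6 sums) and tested with edgeR 4.0.16 in R 4.3.3 (TMM, filterByExpr, glmQLFit and glmQLFTest, 2-sided, Benjamini-Hochberg over all genes tested, calls at an adjusted p under 0.05). The library entered as a block because the classes of a library come from the same cells in culture. The common dispersion was 0.000444 with 2 residual degrees of freedom, beside a median of 31.6 prior degrees of freedom shared over genes. A p thus reflects mostly counting noise and that shared spread, less the agreement of the 2 libraries for a gene, and not new cultures. An exact permutation test of single values cannot pass the threshold at this size and was not run. GL261-GSCs values are given without a test.

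Genes named are the 12 largest rises and 12 largest falls at an average log2 CPM of 5 or more with no overlap of high and low sums (leaving out predicted, ribosomal protein and mitochondrial genes), the tested contractile list, a set of SRF, matrix, stem and cycle genes, the gene with the smallest p of each list, and the 10 genes most like the score. Some genes that the rule names are not reported here. Other list members named in the text were chosen after their values were seen. Of 54446 gene identifiers, 54409 matched GENCODE M21, which gave the coordinates. In counts simulated for this comparison over 14661 genes, edgeR recovered 64 of 67 genes changed by 0.5, 67 of 67 by 1 and 66 of 66 by 2 on the log2 scale, with 2 false calls of 199. Alternatives were DESeq2 1.42.0, limma 3.58.1 (voom), other scaling, filters, scores, thresholds, depths and cell cycle restriction.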

Additional observations from a re-analysis of the deposited data

Results flagged for a closer look

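In 2 cases a library stood apart within their group of 4 libraries, out of 16 such groups checked, and chance marks about 1 group in 20. Tagln in GL261-GSCs replicate 3 was 0.448 CPM, and its gap to the next library was 0.916 of the range, above Dixon's critical value for 4 samples. Of the 30 Tagln UMIs in the cells of that library, 14 and 7 lay in 2 cells. Actg1 in GL261-GSCs replicate 4 was 1484 CPM, with a gap of 0.884 of the range.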

How the results depend on the processing

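Against 1765 genes called (1133 higher, 632 lower), the fit with no replicate block called 153 (132 and 21), DESeq2 871 (674 and 197), cells of low cell cycle share 1087 (730 and 357), and library size scaling 2429 (676 and 1753). Thinning to 8000 UMIs left 387 lower genes, and equal cell numbers per class, an alternative chosen after seeing the data, gave 1268 calls. All 871 DESeq2 and all 153 unblocked calls were among the 1765. Members by Tagln alone shared 1011 of the 1765 (57.3%) and cells of low cell cycle share 920 (52.1%), each with 26 of the 1765 at the opposite sign, and 53.8% of the calls with library size scaling were among the 1765. Over the alternatives, 16 to 21 contractile genes were higher (medians 0.70 to 1.05), 13 to 19 focal adhesion genes, and 0 (no replicate block) to 34 G2/M genes. Among named genes that did not pass the test, signs turned with library size scaling (Mkl2 -0.0532, Cd44 -0.0643, Ly6c1 -0.00207, Cdkn1a -0.0773), no low-count filter (Cdkn1a -0.00110), thinning (Des -0.170), Acta2 alone (Cd44 -0.0225), Tagln alone (Tgfbi 0.0648), the top 5% (Des -0.219, Cdkn1a -0.0206), the top 25% (Cd44 -0.0336, Nrp1 0.0319, Cdkn1a -0.0408), low cell cycle share (Cd44 -0.0891, Cdkn1a -0.0132), without the deepest 5% of cells (Synpo2 -0.0246, Cdkn1a -0.0350) and equal cell numbers (Cdkn1a -0.0482). Rrm2 ranged from -0.0106 without GL261 replicate 1 to 0.320 without GL261 replicate 2. The cause was not tested, except that the unblocked fit leaves the difference between libraries in its error and the restricted fits hold fewer cells. Leaving out a library leaves no residual degrees of freedom, so it gives values and no counts of calls. Genes with few UMIs in the high class, which holds about 5 times fewer cells, are limited by depth.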

Other observations

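Interferon-stimulated genes were more often higher than lower in the contractile-high cells. Of 25 tested, 8 were higher and none lower, with a median log2 fold change of 0.30, beside 7.73% of all genes called higher by edgeR. With members chosen by Tagln alone 3 were higher, beside 5.99% of all genes, and the median was 0.10, and without the library term 1 was called. Isg15, a ubiquitin-like protein, had 371 and 130 CPM in the high against 218 and 63.8 CPM in the low class of replicates 1 and 2 (0.85 ± 0.05), so the step within a library was smaller than the gap between the libraries, and without the library term its adjusted p was 0.706. Usp18 (0.32 and 1.48) and Ifit3 (0.42 and 1.18) moved more in replicate 2. Psmb8 (0.39 and 0.39) and Ifi27 (0.37 and 0.40) moved alike.

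Changes of the metabolic lists were small in size, beside 7.73% of all genes called higher and 4.31% lower. Of 23 hypoxia and glycolysis genes, 6 were higher, among them the glucose transporter Slc2a1 (0.29), and 2 lower, Vegfa (-0.42) and Ddit4 (-0.36, with -0.47 and -0.25 in the 2 libraries), and the median was -0.06. Of 23 sterol synthesis genes, 6 were higher and none lower, with a median of 0.09. Without the library term edgeR called 0 of the hypoxia genes (6 at an unadjusted p under 0.05, and 7 called by DESeq2 with that term) and 1 of the sterol genes. Ribosomal protein genes gave 4 higher and 1 lower of 149 tested. Median log2 fold changes per chromosome lay between -0.04 on chromosome 5 and 0.08 on chromosome 3.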
